A study of Mus musculus with 18 samples.

Results

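The endothelial genes described here are 34 of the 10597 genes listed for each library: 26 markers of the cells that line blood vessels and 8 transcription factors of the same cells. They were chosen by name, as rows whose Ensembl identifiers map to a fixed list of mouse symbols. The list was chosen with earlier results of these data known. All 34 were found, and all 34 passed the minimum mean of 10 normalized reads in RNA and in footprints. The samples were left ventricles of untreated male C57BL/6 mice aged 20 weeks, 4 wild type and 5 with a knockout (KO) of mORF4/NBDY, the microprotein encoded by Nbdy, known to bind the mRNA decapping machinery. The sources used here do not give how the knockout allele was made or whether it is restricted to a cell type. Each heart gave 1 poly-A RNA library, which measures transcript levels, and 1 library of ribosome footprints, the mRNA fragments that translating ribosomes protect.

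Endothelial cells sense vascular endothelial growth factors through the receptor kinases Kdr and Flt1 and angiopoietins through Tek, and hold together through VE-cadherin and claudin-5. Their identity is kept by transcription factors of the ETS family (Erg, Fli1, Ets1) and of the SOXF group (Sox7, Sox17, Sox18), and in heart capillaries Meox2 and Tcf15 are known to act together on fatty acid uptake. Capillary endothelium is abundant in heart muscle by cell number, although most RNA of a ventricle comes from cardiomyocytes. The libraries are of whole ventricle, so fewer endothelial cells and less of a transcript per endothelial cell cannot be told apart.

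Nbdy itself lost most of its footprints, with 107 to 355 normalized reads in wild type against 10.9 to 19.0 in knockout. RNA libraries held 11172198 to 12363740 reads over the listed genes in wild type and 15794158 to 20194680 in knockout, with no overlap. Footprint libraries held 6671555 to 36702120 reads in wild type and 22911504 to 40800937 in knockout. The labels name no batch. Whether the RNA libraries of each genotype were made as separate batches is unknown, and in that case batch and genotype cannot be told apart. Wild-type heart 2 had the shallowest footprint library. For 26 of the 34 endothelial genes its footprints lay outside those of the other wild-type hearts, above them for 13 and below them for 13, against 36.3% and 35.5% of all genes tested. For some of the genes footprint differences are given with and without it. In wild type the spread between hearts was larger in footprints, with a median coefficient of variation of 17.3% over the 34 genes, than in RNA, with 8.40%.

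RNA of the endothelial genes differed between genotypes in both directions. Of the 34 genes, 15 fell in knockout, 7 rose and 12 did not pass the threshold, a limma Benjamini-Hochberg adjusted p below 0.05 over all genes tested. The falls were 44.1% of the members against a background of 25.1% of all 10580 genes tested, and the rises 20.6% against 24.3%. In either direction 64.7% of members passed, against 49.4% of all genes. Because the list was chosen with earlier results of these data known, its shares are descriptive and not a test of enrichment. Of the 26 markers 10 fell and 6 rose, with a median log2 fold change of -0.02, and of the 8 transcription factors 5 fell and 1 rose, with a median of -0.41. With quantile normalization the markers were split evenly, with 8 lower and 8 higher, and 4 transcription factors were lower and 1 higher. The median over all genes tested was 0.01. The larger falls were in Hrct1, Ly6c1, Myct1, Meox2 and Sox7, which lost between about 46.7% and 69.6% of their wild-type RNA. Falls of at least 0.5 on the log2 scale numbered 8, against 9.44% of all genes, and those of at least 1 numbered 4, against 1.19%. Rises of at least 0.5 numbered 3, against 10.6%. No member passed in footprints, where 0.02% of all genes did.

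Among the transcription factors, Meox2 and Sox7 had the larger RNA falls. Meox2, a homeobox factor of heart and muscle capillaries, lies on chromosome 12 at 37108540 to 37179534 (GRCm38). In RNA it held 548, 619, 614 and 488 normalized reads in wild-type hearts 1 to 4 and 284, 319, 229, 253 and 181 in knockout hearts 6 to 10, the order used for all values by heart. Every knockout heart lay below every wild-type heart. The mean was 568 ± 61.9 (SD, n = 4) in wild type and 253 ± 52.6 (SD, n = 5) in knockout, a log2 fold change of -1.18 ± 0.15 (SE; adjusted p = 4.81e-05). Its footprints differed with the opposite sign, with 207, 169, 274 and 191 in wild type and 342, 278, 444, 271 and 281 in knockout. Knockout heart 9 fell just below wild-type heart 3, so the groups overlapped, and the log2 fold change of 0.61 ± 0.22 (SE; adjusted p = 0.851) did not pass.

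Sox7, a SOXF factor that acts in vessel formation (chromosome 14, 63943706 to 63950732), showed the same pattern of values. RNA was 422, 466, 543 and 492 in wild type and 198, 312, 193, 254 and 326 in knockout, with all knockout hearts lower, at -0.93 ± 0.16 (SE; adjusted p = 0.000501). Footprints were 283, 145, 338 and 246 in wild type and 540.0, 555, 305, 397 and 453 in knockout. They were above the wild-type range in all knockout hearts but heart 8, and the difference of 0.86 ± 0.25 (SE; adjusted p = 0.851) did not pass. The unadjusted p in footprints was 0.00324 for Sox7 and 0.0134 for Meox2, and 5.06% of all genes had an unadjusted p below 0.05. Without wild-type heart 2, where footprints of both genes were lowest among wild-type hearts, the log2 fold changes in footprints were 0.62 for Sox7 and 0.52 for Meox2.

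**Figure D1:**
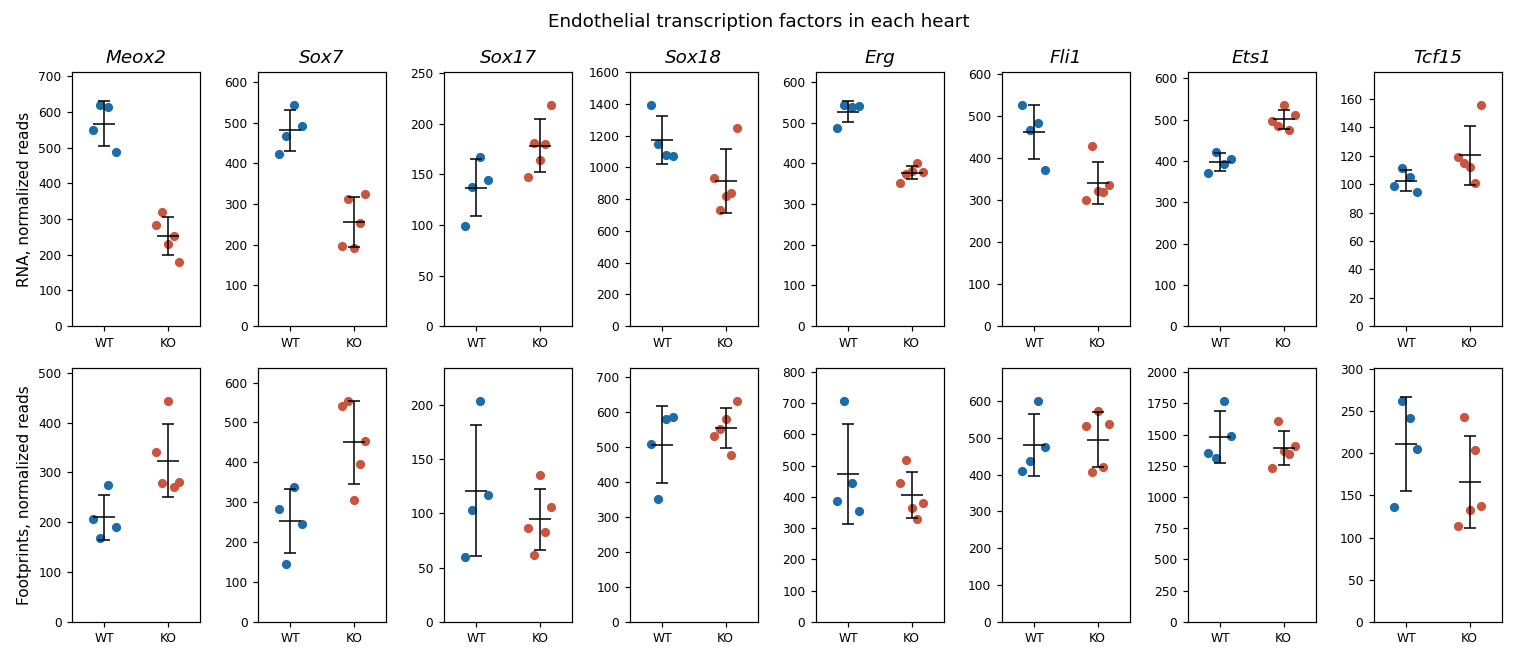
Normalized RNA reads (upper row) and footprint reads (lower row) of the 8 endothelial transcription factors, 1 point per heart, for 4 wild-type (WT) and 5 knockout (KO) hearts, with the mean and SD in black. RNA of Meox2, Sox7 and Erg lies lower in every knockout heart than in any wild-type heart and RNA of Ets1 higher, while the footprints of all 8 overlap between genotypes.

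The other SOXF factors differed from Sox7 in their values. Sox18, a factor of blood and lymphatic vessel development, had RNA of 1393, 1149, 1080.0 and 1074 in wild type and 932, 729, 823, 840.4 and 1249.6 in knockout. Knockout heart 10 lay within the wild-type range, and the log2 fold change of -0.38 ± 0.14 (SE; adjusted p = 0.0384) passed the test. Leaving out heart 1, 2, 7, 8 or 9 ended the call, with adjusted p between 0.0695 and 0.116, as did quantile normalization (adjusted p = 0.0932) and a fit with no mean-variance trend (adjusted p = 0.0609). Sox17, known for its part in arterial endothelium, had RNA of 98.8, 137, 167 and 145 in wild type and 147, 181, 165, 181 and 219 in knockout. These groups overlapped at a higher knockout mean, and the log2 fold change was 0.39 ± 0.15 (SE; adjusted p = 0.0537), short of the threshold. Footprints of Sox18 were 509, 352, 581 and 588 in wild type and 532, 552, 581, 479 and 633 in knockout, and those of Sox17 59.4, 104, 204 and 117 and 86.4, 61.5, 136, 82.9 and 106. Neither differed beyond the spread between hearts, at 0.15 ± 0.18 (SE; adjusted p = 0.888) and -0.27 ± 0.37 (SE; adjusted p = 0.905). Without wild-type heart 2, the lowest for Sox18, its footprint difference was -0.01.

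The 3 ETS factors did not move together in RNA. Erg, which maintains junction and identity genes of endothelium, had 487, 543, 538 and 541 in wild type and 353, 375, 382, 399.9 and 378 in knockout, with no overlap and a log2 fold change of -0.48 ± 0.06 (SE; adjusted p = 7.71e-05). Fli1, a close relative of Erg that is also found in blood cells, had 526, 466, 482 and 372 in wild type and 299, 428, 321, 319 and 336 in knockout. Knockout heart 7 lay within the wild-type range, and the log2 fold change of -0.44 ± 0.12 (SE; adjusted p = 0.00961) passed. Ets1 (chromosome 9, 32636241 to 32757820, next to Fli1 at 32422204 to 32543432) rose, from 370.3, 421, 392 and 406 in wild type to 498, 485, 536, 475 and 512 in knockout, with no overlap and a log2 fold change of 0.33 ± 0.06 (SE; adjusted p = 0.00110). Ets1 is also expressed in lymphocytes. Footprints of the ETS factors were 386, 708, 444 and 355 against 444, 516, 363, 329.7 and 380.0 for Erg, with wild-type heart 2 the highest of all hearts. For Fli1 they were 409, 438, 601 and 475 against 533, 408, 574, 422 and 539, and for Ets1 1352, 1315, 1772 and 1486 against 1235, 1607, 1366, 1348 and 1407. All 3 overlapped between genotypes, with log2 fold changes of -0.18, 0.04 and -0.08. Without wild-type heart 2 that of Erg was 0.03.

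Tcf15, the partner of Meox2 in capillary endothelium, was one of the lower members by read number. RNA was 98.8, 111, 105 and 94.7 in wild type and 119, 115, 112, 101 and 156 in knockout, and footprints were 136, 262, 241 and 205 and 113, 243, 133, 203 and 137. Neither passed, at 0.22 ± 0.13 (SE; adjusted p = 0.183) in RNA and -0.36 ± 0.29 (SE; adjusted p = 0.854) in footprints. Without wild-type heart 2 the footprint difference of Tcf15 was -0.24. The 95% interval in RNA, -0.06 to 0.50, did not reach the RNA change of Meox2.

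Among the markers, the RNA falls of more than 1 on the log2 scale were in 3 cell surface proteins. Hrct1 encodes a small, histidine-rich protein with a predicted membrane span (chromosome 4, 43727198 to 43728110). Its RNA was 260.3, 208, 179.8 and 196 in wild type and 76.1, 46.8, 54.4, 70.4 and 72.9 in knockout, the largest fall among the 34 genes at -1.71 ± 0.17 (SE; adjusted p = 8.64e-06). Its footprints were 55.2, 75.9, 59.2 and 56.1 and 138, 82.7, 44.3, 83.9 and 33.9, at 0.15 ± 0.43 (SE; adjusted p = 0.951). The knockout hearts reached both above and below the wild-type hearts in footprints, and the fewest reads in a library were 22. The 95% interval was wide, -0.75 to 1.06, but did not reach the RNA change.

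Ly6c1 encodes a lipid-anchored surface antigen of capillary endothelium (chromosome 15, 75044018 to 75048920). RNA was 3673, 3641, 3039.9 and 3063 in wild type and 1494, 1296, 1150.1, 1397 and 1582 in knockout, a log2 fold change of -1.28 ± 0.10 (SE; adjusted p = 1.46e-06). Footprints were 1229.6, 1035, 1235 and 1180.3 and 1117, 1112, 972, 1022 and 1309, at -0.08 ± 0.13 (SE; adjusted p = 0.917). Here the footprints were precise, and their 95% interval of -0.36 to 0.20 did not reach the RNA change. Ly6c2 is a near-identical neighbour found on monocytes, so reads may be split between the copies and the values of Ly6c1 are uncertain.

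Myct1, a small membrane protein of endothelium (chromosome 10, 5593728 to 5606789), had RNA of 741, 704, 639 and 726 in wild type and 305, 261, 276, 323 and 312 in knockout. No heart of one genotype came near the other, and the log2 fold change was -1.25 ± 0.08 (SE; adjusted p = 4.88e-07). Footprints were 272, 100.1, 291 and 275 in wild type and 358, 378, 356, 375 and 253 in knockout, at 0.65 ± 0.29 (SE; adjusted p = 0.851), with an unadjusted p of 0.0356. The low value of wild-type heart 2 came from 29 reads, and without that heart the footprint log2 fold change was 0.28.

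The bases before the annotated start are shown for the members that fell in RNA by more than 1 and have a single start in the RefSeq table (GRCm38.p6), and for Rasip1, the marker with the largest RNA rise. RefSeq entries matched 17 of the 34 members. Each line gives 250 bases on the plus strand, which is the strand of all 4 genes. The letters GGAAG, 1 form of the ETS motif, or their reverse complement CTTCC are in capitals. Matches to the shorter GGAA alone are neither marked nor counted.
Meox2 (chr12:37108290-37108539): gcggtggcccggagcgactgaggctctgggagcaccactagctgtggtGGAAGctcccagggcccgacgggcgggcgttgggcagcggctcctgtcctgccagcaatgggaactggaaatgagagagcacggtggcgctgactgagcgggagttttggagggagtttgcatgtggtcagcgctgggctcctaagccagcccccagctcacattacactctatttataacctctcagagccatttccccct
Myct1 (chr10:5593478-5593727): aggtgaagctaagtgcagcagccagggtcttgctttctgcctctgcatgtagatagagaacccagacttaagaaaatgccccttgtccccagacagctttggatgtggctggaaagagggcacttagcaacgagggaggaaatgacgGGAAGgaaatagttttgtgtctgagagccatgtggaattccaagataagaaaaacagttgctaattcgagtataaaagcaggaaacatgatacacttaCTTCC
Hrct1 (chr4:43726948-43727197): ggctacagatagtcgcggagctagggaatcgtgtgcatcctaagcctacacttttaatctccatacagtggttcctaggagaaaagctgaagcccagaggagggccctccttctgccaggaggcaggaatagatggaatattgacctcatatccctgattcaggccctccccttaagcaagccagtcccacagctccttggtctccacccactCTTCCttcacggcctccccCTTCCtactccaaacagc
Rasip1 (chr7:45627287-45627536): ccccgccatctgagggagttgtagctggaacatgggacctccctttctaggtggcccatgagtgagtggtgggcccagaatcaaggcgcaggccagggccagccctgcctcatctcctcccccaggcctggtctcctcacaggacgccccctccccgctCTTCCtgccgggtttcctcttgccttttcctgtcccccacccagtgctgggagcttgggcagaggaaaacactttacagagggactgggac
The GGAAG form, in either direction, occurred 1 time before Meox2 and before Rasip1 and 2 times before Myct1 and before Hrct1. Both a fallen and a risen gene thus carried it. It was present in 18 of 22 windows of the 17 matched members (81.8%) and in 64.1% of all 32851 windows of this length. The SOX core ACAAT, or its reverse complement ATTGT, was in none of the 4 windows shown, in 5 of the 22 member windows (22.7%) and in 27.7% of all windows. These are matches of letters and not measured binding sites. Entries for Pecam1, Cdh5, Vwf, Esam, Icam2, S1pr1, Ptprb, Mmrn2, Nos3, Ecscr, Cd93, Sox7, Sox17, Sox18, Fli1, Ets1 and Tcf15 were not used here.

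The remaining surface proteins changed less. Emcn, a sialomucin of veins and capillaries, had RNA of 1325, 1176, 1075 and 1193 in wild type and 811, 714, 741, 805 and 668 in knockout, a log2 fold change of -0.67 ± 0.08 (SE; adjusted p = 2.70e-05) with no overlap. Its footprints were 1513, 2088, 1551 and 1482 and 1557, 1547, 1438, 1436 and 1569, with wild-type heart 2 apart at the top, and at -0.12 ± 0.13 (SE; adjusted p = 0.878) they did not pass (-0.0063 without that heart). Aqp1, the water channel of capillaries and red cells, was the surface protein that rose. Its RNA was 1494, 1249.8, 1719 and 1258 in wild type and 1526, 2469, 1891, 2003 and 2697 in knockout, at 0.55 ± 0.15 (SE; adjusted p = 0.0108), with knockout heart 6 inside the wild-type range. Its footprints were 8109, 7231, 12266 and 8594 and 6093, 9949, 7643, 7490.0 and 11261, at -0.10 ± 0.17 (SE; adjusted p = 0.928). Ecscr, which modulates growth factor signalling at the endothelial surface, fell by a smaller amount, -0.29 ± 0.08 (SE; adjusted p = 0.0122), with no overlap. The lectin-like proteins Clec14a and Cd93 did not pass in RNA, at 0.18 ± 0.09 (SE; adjusted p = 0.0975) and -0.07 ± 0.08 (SE; adjusted p = 0.532). In all, 5 of 8 surface proteins outside the receptor and junction groups fell (62.5%) and 1 rose (12.5%), against 25.1% and 24.3% of all genes. Their footprint differences lay between -0.12 in Emcn and 0.65 in Myct1.

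**Figure D2:**
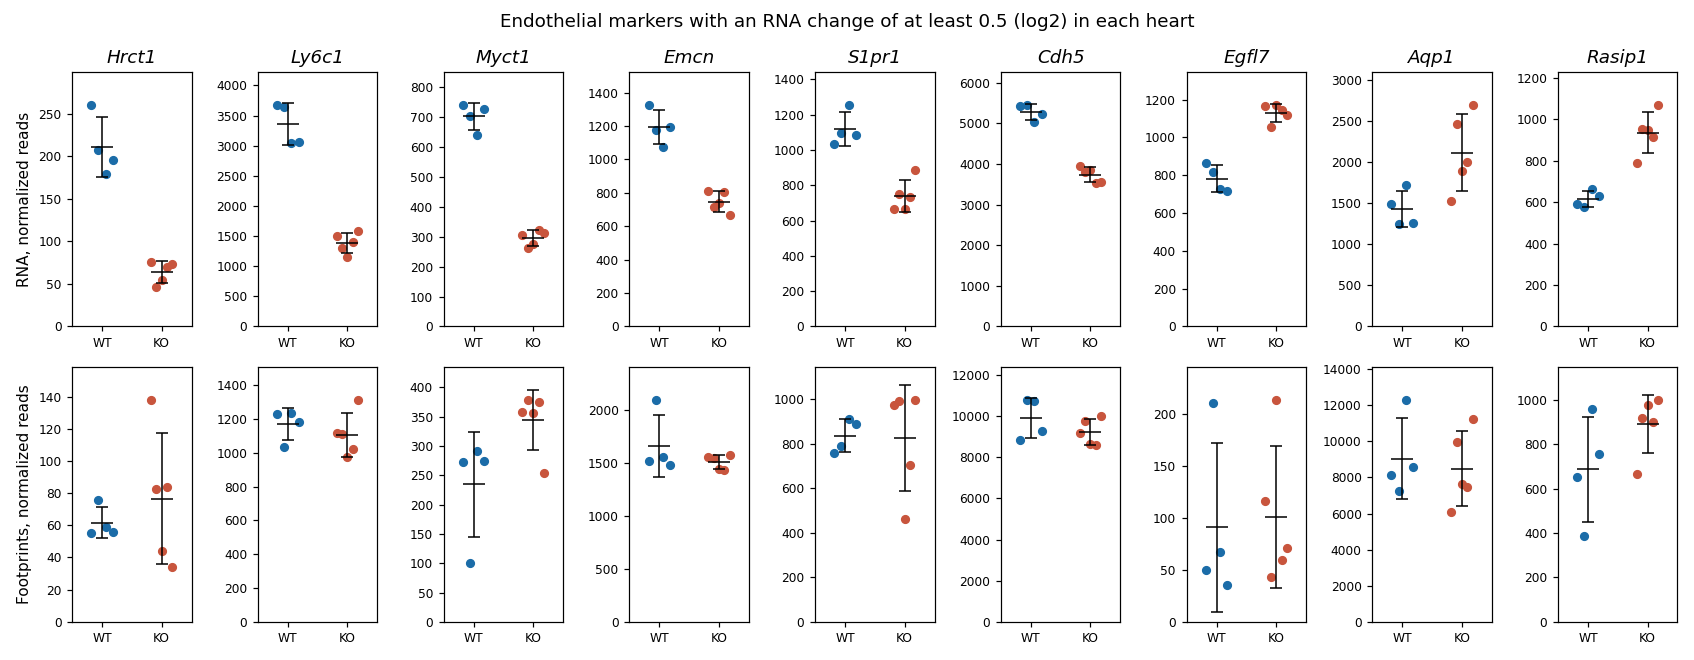
Normalized RNA reads (upper row) and footprint reads (lower row) of the 9 endothelial markers with an RNA call and a log2 fold change of at least 0.5 in size, 1 point per heart with the mean and SD in black, each panel on its own scale from 0. RNA of the 6 genes on the left is lower in every knockout (KO) heart than in any wild-type (WT) heart, RNA of Egfl7 and Rasip1 is higher in every knockout heart, and the footprints of all 9 overlap.

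Growth factor receptors, grouped here with the phosphatase Ptprb, changed by small amounts, in both directions. Of 6 genes 3 fell, the VEGF receptors Kdr and Flt1 and the angiopoietin receptor Tek, and 1 rose, which is 50% and 16.7% against 25.1% and 24.3% of all genes. Kdr RNA averaged 4759 ± 669.6 (SD, n = 4) in wild type and 3899 ± 526 (SD, n = 5) in knockout, at -0.29 ± 0.11 (SE; adjusted p = 0.0429), and Flt1, which binds VEGF with high affinity and can act as its sink, averaged 2661 ± 173 (SD, n = 4) in wild type and 2208 ± 198 (SD, n = 5) in knockout, at -0.27 ± 0.07 (SE; adjusted p = 0.00729). Tek was at -0.16 ± 0.05 (SE; adjusted p = 0.0269). Leaving out heart 1, 2, 7, 8, 9 or 10 ended the Kdr call (adjusted p between 0.0650 and 0.130), and leaving out heart 2, 3, 8 or 10 ended that of Tek (between 0.0506 and 0.0777). Both were also lost with quantile normalization (adjusted p = 0.110 and 0.317), and Kdr with no mean-variance trend (0.0709). Tie1, the orphan relative of Tek, rose, with a range of 1455 to 1730.2 in wild type and 1797 to 2072 in knockout and no overlap, at 0.34 ± 0.07 (SE; adjusted p = 0.00132). Eng, a co-receptor for TGF-beta and BMP ligands, and Ptprb, the phosphatase that acts on Tek, were at 0.16 ± 0.10 (SE; adjusted p = 0.191) and 0.03 ± 0.07 (SE; adjusted p = 0.782) and did not pass. Eng overlaps Fpgs, another listed gene, and the RNA library kit does not mark strand, so its RNA value is uncertain. The same holds for Nos3, which overlaps Atg9b, and for Cdh5, Kdr, Flt1, Emcn and Rasip1, which overlap annotated long non-coding RNAs. In footprints the 6 genes of this group lay between -0.16 and 0.06, and none passed.

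Of the receptors for guidance and lipid cues, S1pr1 fell and Robo4 did not pass. S1pr1 binds sphingosine 1-phosphate and steadies vessel barriers. Its RNA was 1034, 1099, 1255 and 1086 in wild type and 668, 749, 666, 732 and 885 in knockout, at -0.60 ± 0.09 (SE; adjusted p = 0.000189) and with no overlap. Its footprints were 757, 790.4, 913 and 887 and 975, 994, 463, 706 and 994, spread more widely in knockout, where heart 8 was lowest. Robo4, a vessel-specific roundabout receptor, was at -0.22 ± 0.10 (SE; adjusted p = 0.0730) in RNA and, with the opposite sign, 0.38 ± 0.19 (SE; adjusted p = 0.851) in footprints, neither past the test.

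Junction and adhesion proteins were split as well, with 1 fall and 2 rises among 5, or 20% and 40% against 25.1% and 24.3% of all genes. Cdh5, VE-cadherin, the core of endothelial adherens junctions, lies on chromosome 8 at 104101613 to 104144504. RNA was 5436, 5454, 5045 and 5229.9 in wild type and 3947, 3799, 3866, 3541 and 3553 in knockout, narrow groups with no overlap and a log2 fold change of -0.50 ± 0.05 (SE; adjusted p = 1.10e-05). Footprints were 8857, 10768, 10731 and 9276 and 9204, 9769.8, 8643, 8616 and 10019.7, at -0.10 ± 0.11 (SE; adjusted p = 0.881), with overlap. Esam, an adhesion molecule of tight junctions and platelets, rose by 0.38 ± 0.08 (SE; adjusted p = 0.00213), and Icam2, a ligand of leukocyte integrins, by 0.24 ± 0.08 (SE; adjusted p = 0.0287), both with no overlap. Leaving out heart 4, 7, 8 or 10 ended the Icam2 call, with adjusted p between 0.0531 and 0.0708. Pecam1, one of the most used endothelial markers, was at -0.06 ± 0.05 (SE; adjusted p = 0.340), with 2093 to 2377 in wild type and 1991 to 2178 in knockout. Its 95% interval of -0.18 to 0.05 did not reach the RNA change of Cdh5. Cldn5, claudin-5 of tight junctions, spread widely within each genotype, from 69.0 to 149 in wild type and 91.8 to 232 in knockout, and at 0.34 ± 0.31 (SE; adjusted p = 0.385) no change was detectable. Footprints of the 5 junction genes were all slightly negative, down to -0.16 in Pecam1, and none passed.

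Of the 3 secreted and 2 intracellular proteins, Egfl7 and Rasip1 rose and none fell, where 24.3% of all genes rose and 25.1% fell. Egfl7, a matrix-bound angiogenic factor whose gene hosts the endothelial miR-126 precursors, had RNA of 864, 818, 728 and 717 in wild type and 1163, 1055, 1171, 1143 and 1119 in knockout, a rise of 0.53 ± 0.07 (SE; adjusted p = 5.22e-05) with no overlap. Its footprints were few, 49.7, 211, 67.0 and 35.6 and 116, 43.3, 213, 59.2 and 71.2, and at 0.27 ± 0.53 (SE; adjusted p = 0.935) a change of the RNA size could not be detected. Wild-type heart 2 was the highest of the wild-type hearts, and without it the footprint difference of Egfl7 was 0.78. Rasip1, a Ras-interacting protein needed for vessel lumens, had RNA of 592, 576, 662 and 632 in wild type and 792, 955, 951, 917 and 1069.7 in knockout, at 0.60 ± 0.08 (SE; adjusted p = 0.000105). Its footprints were 653, 387, 956 and 755 and 666, 919, 975, 898 and 997. They had the same sign, at 0.43 ± 0.22 (SE; adjusted p = 0.851), with the lowest value in wild-type heart 2, and without that heart the difference was 0.18. Vwf, the clotting factor stored in endothelial granules, Mmrn2, a matrix ligand of Clec14a and Cd93, and Nos3, endothelial nitric oxide synthase, did not pass in RNA, at 0.26, 0.08 and 0.14. Their footprint differences were -0.20, 0.09 and 0.35, and Vwf footprints were 3008, 4759, 2998 and 2751 in wild type, with heart 2 far above the rest, and 2261 to 3430.3 in knockout. Nos3 footprints were 538, 197, 669.6 and 455 in wild type, with heart 2 far below the rest, and 391 to 691 in knockout. Without heart 2 the footprint differences were -0.02 for Vwf and -0.02 for Nos3.

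Across the 34 genes, no footprint difference passed, and footprint signs matched RNA signs about as often as over all genes. Of the 22 members called in RNA 11 had the same sign in footprints, against 50.4% of all genes called in RNA. Among transcription factors it was 1 of 6 and among markers 10 of 16. No member had footprints that separated the genotypes, which 1.6% of all genes did, whereas in RNA 6 members were higher in every knockout heart and 11 lower, against 19.8% and 20.6% of all genes. With an unadjusted limma p below 0.05 there were 3 of the 34 members in footprints, Sox7, Myct1 and Meox2, against 5.06% of all genes. On whole footprint reads edgeR and DESeq2 called none of the 34. The footprint log2 fold changes had a median of -0.02. Their unadjusted 95% intervals reached a median of 0.37 to either side. The limit of the adjusted test was higher, since differences of 0.86, 0.65 and 0.61 in Sox7, Myct1 and Meox2 did not pass. The authors' deposited table also has no member below 0.05 in footprints, with a smallest adjusted p of 0.467 and 0.0583% of all genes below the threshold. In RNA the authors' deposited table has 23 members below it, against 49.1% of all genes.

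**Figure D3:**
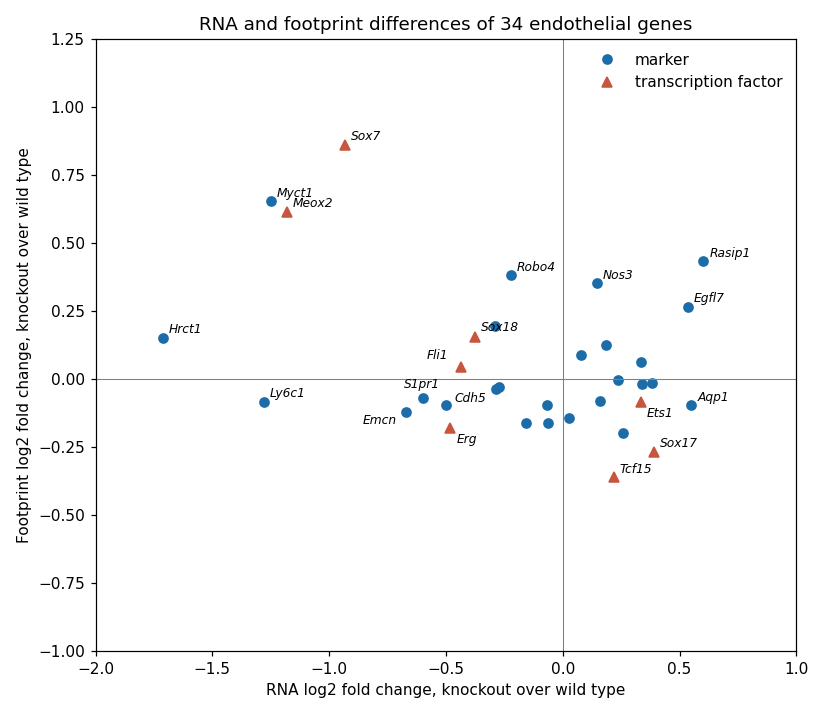
Footprint log2 fold change (vertical) against RNA log2 fold change (horizontal), knockout over wild type, for 26 endothelial markers (circles) and 8 transcription factors (triangles). The genes spread from -1.71 to 0.60 in RNA and from -0.36 to 0.86 in footprints, with Sox7, Myct1 and Meox2 at the upper left.

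Translational efficiency, a heart's normalized footprint reads divided by its normalized RNA reads, differed for 8 members in the genotype by assay test. Of the 34, 7 were higher in knockout (20.6%), against 7.83% of all 9974 genes tested, and 1 lower (2.94%), against 6.55%. The ratios were higher in every knockout heart for 7 members, against 9.55% of all genes, and lower in every knockout heart for 3, against 8.73%. The authors' deposited table has 8 members below an efficiency adjusted p of 0.05, against 16.0% of its genes. The 8 genes called here are the same 8 members that the authors' deposited table tags as buffered, a tag on 15.2% of its genes. All 8 were also called in RNA in the opposite direction. The share of all genes called in efficiency for which this holds was not counted, so it is not shown to be particular to the members. RNA values are part of both tests, and the efficiency calls are therefore not independent of the RNA calls.

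Efficiency of Meox2 was 0.377, 0.273, 0.446 and 0.391 in wild type and 1.20, 0.872, 1.94, 1.07 and 1.55 in knockout, 1.80 ± 0.26 (SE; adjusted p = 0.000132) on the log2 scale. Sox7 had 0.670, 0.311, 0.622 and 0.50 and 2.73, 1.78, 1.58, 1.56 and 1.39, at 1.79 ± 0.32 (SE; adjusted p = 0.000867). Both were separated between genotypes by a wide gap, and knockout heart 6 was the highest for Sox7 and heart 8 for Meox2. Myct1 had 0.368, 0.142, 0.455 and 0.379 and 1.17, 1.45, 1.29, 1.16 and 0.812, at 1.90 ± 0.32 (SE; adjusted p = 0.000588), and Hrct1 0.212, 0.365, 0.329 and 0.286 and 1.81, 1.77, 0.814, 1.19 and 0.466, at 1.87 ± 0.45 (SE; adjusted p = 0.00830). For Ly6c1 the ratio was 0.335, 0.284, 0.406 and 0.385 in wild type and 0.748, 0.858, 0.845, 0.731 and 0.827 in knockout, at 1.19 ± 0.15 (SE; adjusted p = 3.84e-05), the narrowest spread of the 5. Without wild-type heart 2 these 5 genes stayed past the threshold, at 1.65 for Meox2, 1.56 for Sox7, 1.53 for Myct1, 1.97 for Hrct1 and 1.10 for Ly6c1.

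Emcn and Cdh5 rose in efficiency by smaller amounts. Emcn had 1.14, 1.77, 1.44 and 1.24 in wild type and 1.92, 2.17, 1.94, 1.78 and 2.35 in knockout, at 0.55 ± 0.14 (SE; adjusted p = 0.0130), and Cdh5 1.63, 1.97, 2.13 and 1.77 and 2.33, 2.57, 2.24, 2.43 and 2.82, at 0.40 ± 0.11 (SE; adjusted p = 0.0143). Both were higher in every knockout heart. Leaving out heart 1 or 4 ended the Emcn call (adjusted p = 0.0647 and 0.0510), and leaving out heart 1 ended that of Cdh5 (adjusted p = 0.0633). Without heart 1, a wild-type heart, 3 markers were thus called higher in efficiency in place of 5. Ets1 was the member that fell, from 3.65, 3.12, 4.52 and 3.66 in wild type to 2.48, 3.31, 2.55, 2.84 and 2.75 in knockout, at -0.42 ± 0.14 (SE; adjusted p = 0.0466). Its groups overlapped, and the call was lost in the paired fit, in which each heart is a block (adjusted p = 0.0521), with no mean-variance trend (0.0525), and without heart 1, 3, 4, 6, 8, 9 or 10 (0.0792 to 0.157).

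In the paired fit 2 further members passed. Robo4 was higher at 0.60 ± 0.16 (SE; adjusted p = 0.0146) and Aqp1 lower at -0.65 ± 0.10 (adjusted p = 0.000669), where the unpaired fit gave adjusted p = 0.0717 and 0.111. Aqp1 ratios were 5.43, 5.79, 7.13 and 6.83 in wild type and 3.99, 4.03, 4.04, 3.74 and 4.18 in knockout, so each knockout heart was below each wild-type heart although neither assay alone separated them. In that fit 9.92% of all genes were higher and 8.65% lower. Eng and Vwf also had ratios lower in every knockout heart without passing either fit.

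**Figure D4:**
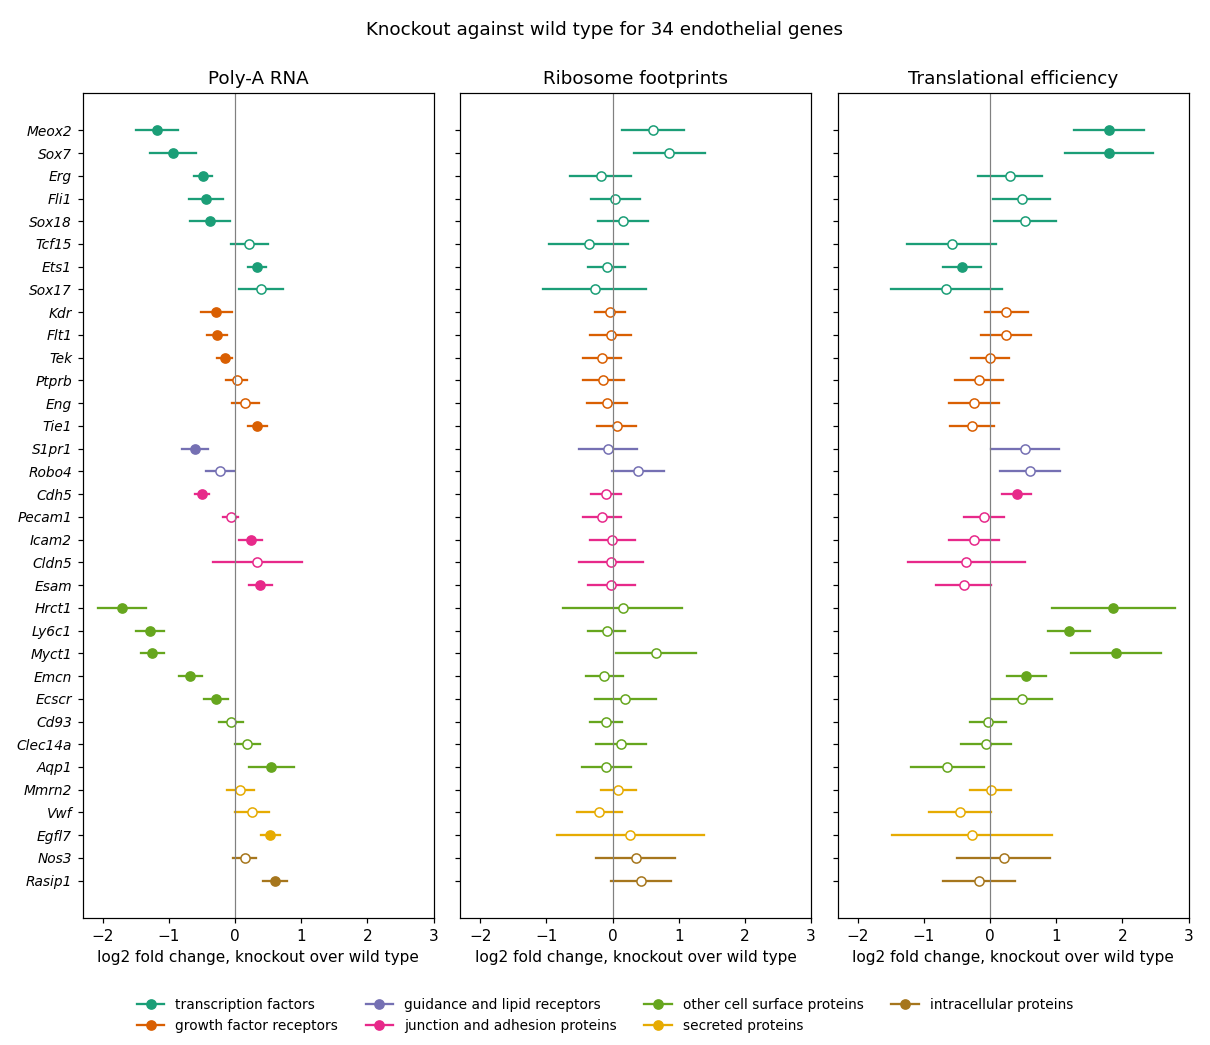
Log2 fold change of knockout over wild type with its 95% interval for the 34 endothelial genes in poly-A RNA, ribosome footprints and translational efficiency, coloured by role and ordered by RNA change within a role. Filled points passed the limma test over all genes at an adjusted p below 0.05: 22 in RNA, none in footprints and 8 in efficiency.

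In wild-type hearts the ratio of footprint to RNA reads varied widely among members. The ratio compares 2 separately normalized libraries, and RNA reads also cover untranslated parts of a transcript, so it orders genes only roughly. Egfl7 had the lowest mean at 0.114 ± 0.0973 (SD, n = 4), followed by Hrct1 at 0.298 ± 0.0660 (SD, n = 4), Myct1 at 0.336 ± 0.135 (SD, n = 4), Ly6c1 at 0.353 ± 0.0545 (SD, n = 4), Meox2 at 0.372 ± 0.0724 (SD, n = 4) and Sox18 at 0.439 ± 0.122 (SD, n = 4). Neighbours in this order overlapped between hearts, so the order of neighbours is not resolved. Egfl7, at most 0.257 in a wild-type heart, lay below Ly6c1, Meox2 and Sox18, which were at least 0.273. The highest means were those of Cldn5 at 6.94 ± 2.36 (SD, n = 4), Aqp1 at 6.29 ± 0.817 (SD, n = 4), Cd93 at 4.09 ± 0.306 (SD, n = 4), Ets1 at 3.74 ± 0.576 (SD, n = 4) and Vwf at 3.44 ± 1.05 (SD, n = 4). The hearts of Cldn5 enclosed those of Aqp1, and those of Cd93, Ets1 and Vwf overlapped, so the order within each of these groups is not resolved either. In knockout the ratios of Hrct1, Myct1 and Meox2 were above 1 on average, at 1.21 ± 0.586 (SD, n = 5), 1.18 ± 0.235 (SD, n = 5) and 1.33 ± 0.422 (SD, n = 5). Among the 4 members with low ratios and large RNA falls, only Ly6c1 stayed below 1, at 0.802 ± 0.0581 (SD, n = 5). As RNA is the divisor of the ratio, these higher ratios partly restate the RNA falls by which the 4 were picked. A ratio of 1 has no meaning of its own here. Levels between genes were not compared per length, as no transcript lengths were used here.

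Other genes of vessels were taken from lists that hold no member. Of 25 measured ligands and co-receptors 6 rose and 3 fell in RNA (36.0% called, against 49.4% of all genes), with a median of 0.05. Adgra2, an adhesion receptor of vessel sprouting, rose by 0.81, Jag2, a Notch ligand, rose by 0.52, and Bmpr2, the type II BMP receptor, fell by 0.61. Of 35 other endothelial genes 10 rose and 10 fell, 28.6% in each direction against 24.3% and 25.1% of all genes. The falls included Podxl, a sialomucin related in role to Emcn, at -1.18, the adhesion receptor Adgrl4 at -0.995 and the GTPase Gimap4 at -0.84. Of 24 other endothelial transcription factors 2 rose (8.33%) and 9 fell (37.5%). Foxp1, a forkhead factor, fell by 0.76, Elk3, an ETS factor, fell by 0.71 and Nfatc1, known for its part in heart valve endothelium, fell by 0.46. None of these 84 genes passed in footprints. In efficiency 8 of the 84 were higher and 8 lower, 9.52% in each direction against 7.83% and 6.55% of all genes. The lists differed in this. Among the 25 ligands and co-receptors 0 were higher and 2 lower (0% and 8%). Among the 35 other endothelial genes 3 were higher and 6 lower (8.57% and 17.1%). Among the 24 other transcription factors 5 were higher and 0 lower (20.8% and 0%). Podxl at 1.07 and Adgrl4 at 0.94 were among the higher and Adgra2 at -1.14 among the lower.

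Summed over the 26 markers, RNA was 36125 to 39355 normalized reads in wild type and 32151 to 35792 in knockout, with no overlap. The gap was narrow, from 36125 in wild-type heart 4 to 35792 in knockout heart 10. Without Ly6c1 the RNA sums were 33062 to 35715 in wild type and 30754 to 34210 in knockout and overlapped. That alternative was chosen after seeing the data. Cdh5 also differed between these hearts by more than the gap, at 5229.9 in heart 4 and 3553 in heart 10. The separation was thus not particular to Ly6c1. Footprints of all 26 summed to 58859 to 70325 in wild type and 53781 to 69888 in knockout, with overlap. The sums of the transcription factors were 3613 to 3945 in wild type and 2759.95 to 3357 in knockout in RNA, with no overlap, and 3341 to 4455 and 3532 to 4220.3 in footprints. Markers of other cell types were measured beside them, where 24.3% of all genes rose and 25.1% fell in RNA. The 10 cardiomyocyte genes (4 fell, 2 rose in RNA), 10 fibroblast genes (2 rose), 10 pericyte and smooth muscle genes (5 rose, 2 fell), 10 macrophage genes (3 rose, 2 fell), 5 red cell genes (1 rose) and 5 lymphatic genes (1 rose, 1 fell) had summed RNA that overlapped between genotypes. The 2 lymphocyte genes found, of 7 listed, both fell, with summed RNA of 277 to 376 in wild type and 149 to 256 in knockout and no overlap. No gene of these lists was at 0 in all libraries, and none passed in footprints. What part the other cell types have in the endothelial values was not tested.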

How the data were processed

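Poly-A RNA and ribosome footprints were sequenced from 9 left ventricles, 4 wild type and 5 knockout, giving 18 libraries. The submitters' processing notes name STAR 2.7.1a, HTSeq and DESeq2, with GRCm38 and mm10 as builds, without roles or order. The deposited expression values are read counts divided by 1 size factor per library, a normalized signal in which whole reads could be recovered for all libraries at a tolerance of 0.01 reads. The translational efficiency ratio in the authors' deposited table equals the quotient of footprint and RNA values within 0.0497%. Deposited log2 fold changes and p-values of the authors' own comparisons were used only where named.

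Genotypes were compared on log2(normalized value + 1) by limma 3.58.1 in R 4.3.3, using its mean-variance trend, over all genes with a mean of at least 10, with two-sided p-values adjusted by Benjamini-Hochberg. Fold changes are knockout over wild type on this scale, which understates changes of low genes. For efficiency the test was the interaction of genotype and assay over the 18 libraries, with no term for the heart. The paired fit, with the heart as a block, was run as an alternative. edgeR 4.0.16 and DESeq2 1.42.0 were run on whole footprint reads as alternatives, beside other pseudocounts, minimum means, scalings and leaving out each heart. The labels number the hearts, and each number holds 1 RNA and 1 footprint library, which pairs these libraries. Over 8066 genes with a mean of at least 100, their deviations from the group means correlated at 0.208 to 0.502 (median 0.378), and 8 of 9 RNA libraries correlated best with their own heart. Nothing in the labels says how the hearts were sampled beyond their numbers, so p-values measure the spread between these samples.

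The members, the other gene lists and the cell type lists were chosen with earlier results of these data known. Values in every heart are given for all transcription factors and for markers past the threshold in footprints, in efficiency, or in RNA with a log2 fold change of at least 0.5 in size. Of the other vessel lists, the 3 genes with the smallest RNA adjusted p are named. Promoter letters and gene positions are from RefSeq tables of GRCm38.p6.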

Additional observations from a re-analysis of the deposited data

Results flagged for a closer look

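In 12 of 204 groups of hearts (34 genes, 3 measures and both genotypes) 1 heart stood apart from the others by Dixon's criterion, where chance gives about 1 in 20, or 10.2. Wild-type heart 2, the shallowest footprint library, accounted for 4: Vwf footprints at 4759 (others 2751 to 3008), Vwf efficiency at 5.005 (others 2.782 to 3.101), Emcn footprints at 2088 (others 1482 to 1551) and Myct1 footprints at 100.1 (others 272.2 to 291.2). In the other wild-type hearts, Vwf RNA was high in heart 3 at 1077, S1pr1 efficiency was high in heart 4 at 0.8166, Ptprb RNA was low in heart 4 at 1989 and Erg RNA was low in heart 1 at 487.2. In knockout, Clec14a RNA was low in heart 7 at 170.5 and Fli1 RNA was high in the same heart at 427.7. Myct1 footprints were low in heart 10 at 253.3, and Sox7 efficiency was high in heart 6 at 2.734.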

How the results depend on the processing

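No result changed direction past its threshold under the alternatives run. Transcription factors called higher in RNA numbered 2 with TMM factors and 2 in the authors' deposited table, against 1. With the heart as a replicate block, 1 marker was lower in efficiency, against 0, and 0 transcription factors were lower, against 1, as also with no mean-variance trend (0). The cause was not tested. Leaving out each heart in turn gave 5 to 7 markers higher and 8 to 10 lower in RNA, and 1 to 2 transcription factors higher and 4 to 5 lower. In efficiency it gave 3 to 7 markers higher and 0 lower, and 2 to 3 transcription factors higher and 0 to 1 lower, and in footprints 0 throughout. Members without a call turned sign under some alternative for 3 of 12 in RNA, 16 of 34 in footprints and 6 of 26 in efficiency. The fewest footprint reads of a member in a library were 22, for Hrct1, and 29 for Myct1, in wild-type heart 2 for both.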
